A study of Mus musculus with 2 samples.

Results

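The interferon-stimulated genes and interferon-induced GTPases were examined in stimulated mouse CD8 T cells, as 42 genes listed by symbol. All 42 were present among the 24013 genes of the deposited table of normalized counts, and where a symbol has several transcript rows the one with the highest mean level was taken. The study compared 1 wild-type library (C57BL/6, age 7 weeks) with 1 library from DGKζ-/- animals of the same strain (age 6 weeks). DGKζ is a kinase that removes diacylglycerol, the messenger linking the T cell receptor to Ras and protein kinase C. In both groups naive cells were purified from the spleen by kit and then stimulated for 24 hours on immobilised antibodies to CD3 and CD28. No interferon, cytokine or virus was named among the additions. The labels name no Cre driver, no deleted exon and no number of animals per library.

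Interferons act through a pair of linked programs. Type I interferon binds IFNAR1 and IFNAR2, and the kinases JAK1 and TYK2 then drive assembly of the factor complex ISGF3, which contains STAT2 and IRF9. ISGF3 binds the interferon-stimulated response element (ISRE) before antiviral genes such as the Ifit, Oas, Mx and Isg15 genes. Interferon gamma, which activated CD8 T cells themselves secrete, acts through IFNGR1 and IFNGR2 and the gamma-activated site (GAS) before Irf1 and the genes of the guanylate-binding proteins (GBP) and immunity-related GTPases (IRG). Many target genes answer to both.

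With 1 library per genotype no difference has a replicate check and no test across genes was possible. The wild-type library held 37211969 reads and the deficient library 13464169, so the value of 1 read was 0.583 normalized counts in the former and 1.71 in the latter. Differences are given as the fold of normalized counts with an exact 95% counting interval (Clopper-Pearson), or as a log2 ratio, log2((deficient + 10)/(wild type + 10)), which understates the change of low genes. A gene is called at least 2-fold higher or lower where its mean is at least 50 normalized counts and its log2 ratio reached 1 or -1. The intervals cover counting error only and say nothing of variation between animals or cultures. The normalized count of Dgkz itself was 6714 in the wild type and 2591 in the deficient library. Xist had 24 and 5368 reads, so the libraries also differ in the sex of the animals, and genotype, sex and age cannot be told apart. All 42 members lie on autosomes.

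A few antiviral genes stood higher in the deficient library, while the interferon gamma-type GTPases stood close to equal. Of the 42 members, 35 had a mean of at least 50 and could be called. Of these 35, 4 were at least 2-fold higher in the deficient library, namely Isg15, Usp18, Oas3 and Oasl2, 0 were lower and 31 were not called. Oasl2 is the 1 member that reached the minimum only through the library in which it was high, and without it 3 of 34 were called. Among all 10518 genes compared, 1.3% were called higher and 1.29% lower. Scaling both libraries to equal totals left the same 4 members called, while the split over all genes went from 137 higher and 136 lower to 115 and 179. The members' median log2 ratio was 0.25, against 0.055 over all compared genes, whose central quartiles were -0.14 and 0.22. In the members, 24 log2 ratios were above 0 and 11 below. Over all genes 58.2% were above 0.

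**Figure D1:**
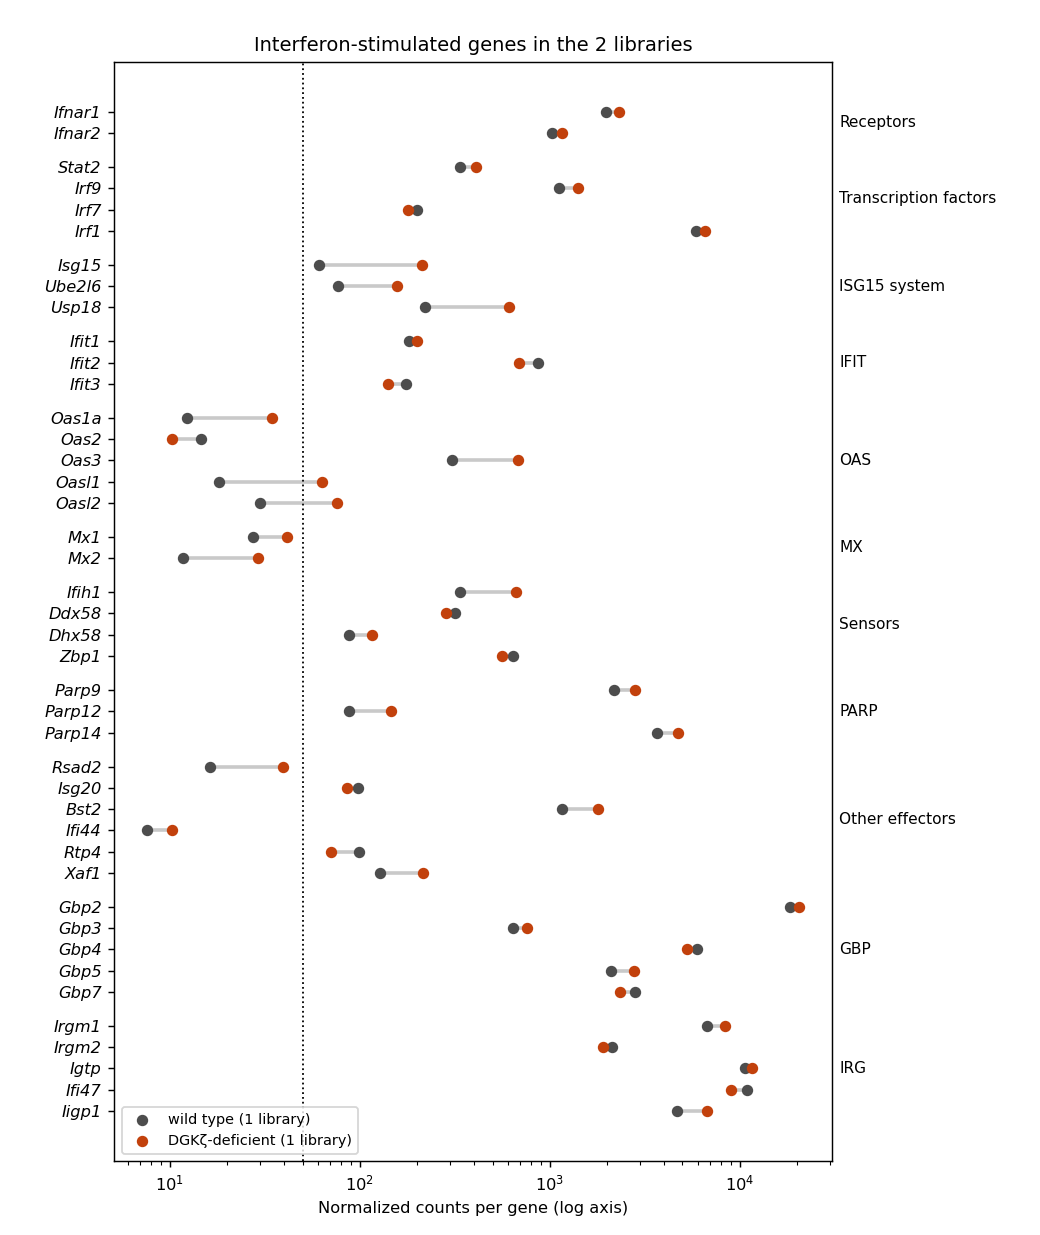
Normalized counts (log axis) of the 42 members in the wild-type library (grey) and the DGKζ-deficient library (orange), 1 library each, grouped by role. The dotted line marks 50 normalized counts. Isg15, Oasl1, Oas1a and Usp18 show the widest gaps, and the GBP and IRG genes lie at the high end with narrow gaps.

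The first group to stand out was the ISG15 system. ISG15 is a ubiquitin-like protein that is secreted or attached to other proteins, Ube2l6 encodes the enzyme that carries it to its targets, and Usp18 encodes the protease that removes it and also restrains IFNAR2 signalling. Isg15 had 104 reads or 60.6 normalized counts in the wild type, and 124 reads or 213 normalized counts in the deficient library. It was 3.51-fold higher (2.68 to 4.60), the largest fold of any member with a mean of at least 50. Usp18 had levels of 220.4 and 607, and was thus 2.75-fold higher (2.38 to 3.19). Ube2l6 was read at 77.0 and 156, a fold of 2.03 (1.54 to 2.67). Its log2 ratio of 0.93 fell short of a call. Summed over these 3 genes, the level was 358 normalized counts in the wild-type and 976 in the deficient library, with the deficient library the higher one for each gene. The activating enzyme of the same conjugation chain, Uba7, was looked at after these values were seen and stood the other way, at 461 and 269 normalized counts (fold 0.584, 0.489 to 0.694). The ligase gene Herc6 was read at 407 and 492, a log2 ratio of 0.27.

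The Oas genes, which encode sensors that make an oligoadenylate messenger to switch on RNase L, and their Oasl relatives gave the other called members. Oas3 had levels of 305 and 684 normalized counts and was 2.24-fold higher (1.96 to 2.56). Oasl2 was read at 29.7 and 75.5 normalized counts, on 51 and 44 reads, 2.54-fold higher (1.66 to 3.87), and passed the minimum level only through the deficient library. The remaining 3 stayed under the minimum. Oasl1 had 31 and 37 reads, or 18.1 and 63.5 normalized counts, a fold of 3.51 (2.12 to 5.85). Oas1a had 21 and 20 reads and a fold of 2.80 (1.44 to 5.43). Oas2 had 25 and 6 reads and a fold of 0.706, whose interval from 0.237 to 1.76 spans equality. So 4 of the 5 Oas and Oasl genes had an interval above 1 and Oas2 did not, at a depth where Oas2 could not be told from equal. Over all compared genes 35.8% had an interval above 1. Of the 4, only Oas3 was at or above 50 normalized counts in both libraries.

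The Mx genes, dynamin-like GTPases that block viruses, were both below the minimum. Mx1 had 47 and 24 reads, 27.4 and 41.2 normalized counts, and a fold of 1.50 (0.878 to 2.51). Mx2 had 20 and 17 reads, 11.7 and 29.2 normalized counts, and a fold of 2.50 (1.23 to 5.02). C57BL/6 is a strain in which Mx1 is known to be defective, and the table holds both a coding and a noncoding transcript row for each of the 2 genes.

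The Ifit genes did not follow Isg15 and Oas3, although the same factor is known to drive them. IFIT proteins bind viral RNA. Ifit1 was read at 181 and 199 normalized counts, a fold of 1.10 (0.881 to 1.37). Ifit2, the most abundant of the 3, was read at 868 and 691, a fold of 0.796 (0.711 to 0.889). Ifit3 was read at 176 and 141, a fold of 0.801 (0.620 to 1.03). In these libraries Ifit2 therefore stood below equality by more than counting error and Ifit1 and Ifit3 were not separable from equal, while the intervals of all 3 ended below those of Isg15, Usp18 and Oas3. Mouse Ifit3 has a close copy, and how reads matching several places were counted is not given in the sources used here.

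Promoter sequences (RefSeq, GRCm38.p6) are shown for genes on both sides of this contrast: the called Isg15 and Oas3, the near-equal ISGF3-type Ifit1, and the interferon gamma-type Gbp2, Igtp and Irf1. Each line holds the 120 bases before the annotated start, 5′ to 3′ on the strand of the gene, and capitals mark an ISRE core (GAAA, then 2 bases of any kind, then GAAA, on either strand) or a GAS (TTCNNNGAA).
Isg15, chr4:156200819-156200938, minus strand: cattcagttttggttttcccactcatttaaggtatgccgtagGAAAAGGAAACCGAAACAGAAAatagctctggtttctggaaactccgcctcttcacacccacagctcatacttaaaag
Oas3, chr5:120777660-120777779, minus strand: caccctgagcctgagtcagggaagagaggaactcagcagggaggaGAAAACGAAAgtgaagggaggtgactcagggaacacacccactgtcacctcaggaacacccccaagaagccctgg
Ifit1, chr19:34640769-34640888, plus strand: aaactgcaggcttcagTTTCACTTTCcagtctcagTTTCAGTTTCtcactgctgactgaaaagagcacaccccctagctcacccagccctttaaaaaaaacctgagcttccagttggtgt
Gbp2, chr3:142620543-142620662, plus strand: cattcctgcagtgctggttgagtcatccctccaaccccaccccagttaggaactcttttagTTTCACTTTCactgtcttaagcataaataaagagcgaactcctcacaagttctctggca
Igtp, chr11:58199436-58199555, plus strand: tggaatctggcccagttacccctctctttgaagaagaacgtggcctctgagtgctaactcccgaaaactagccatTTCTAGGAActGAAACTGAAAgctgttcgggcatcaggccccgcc
Irf1, chr11:53769894-53770013, plus strand: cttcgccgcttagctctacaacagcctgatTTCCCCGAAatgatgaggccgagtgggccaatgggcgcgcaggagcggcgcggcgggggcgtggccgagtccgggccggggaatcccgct

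In Isg15 the capitals are 3 overlapping ISRE cores, between 78 and 57 bases before the start. Oas3 holds a single core, 75 to 66 bases before it, and Ifit1 holds 2 cores on the opposite strand. In Gbp2 the capitals are an ISRE core on the opposite strand. Igtp holds a GAS and, next to it, an ISRE core, and Irf1 holds a GAS alone. An ISRE core thus stood before a called gene (Isg15), a near-equal ISGF3-type gene (Ifit1) and a near-equal gamma-type gene (Gbp2) alike.

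Counted over the 250 bases before each start, the 31 members with an entry had 37 promoters. An ISRE core was found in 40.5% of these, against 2.98% of all 32851 promoters in the table, and a GAS in 27.0% against 7.02%. By gene, 5 of 8 ISGF3-type members and 7 of 8 interferon gamma-type members held an ISRE core. A GAS was found in 2 of 8 ISGF3-type and 5 of 8 interferon gamma-type members. The ISRE core was thus present in both groups and was found in 2 of 3 called and 11 of 24 measured but uncalled genes with an entry. Where a letter match overlaps another the bases are counted in both, as in Bst2, where a GAS match overlaps an ISRE core. A match describes letters, not a bound site.

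**Figure D2:**
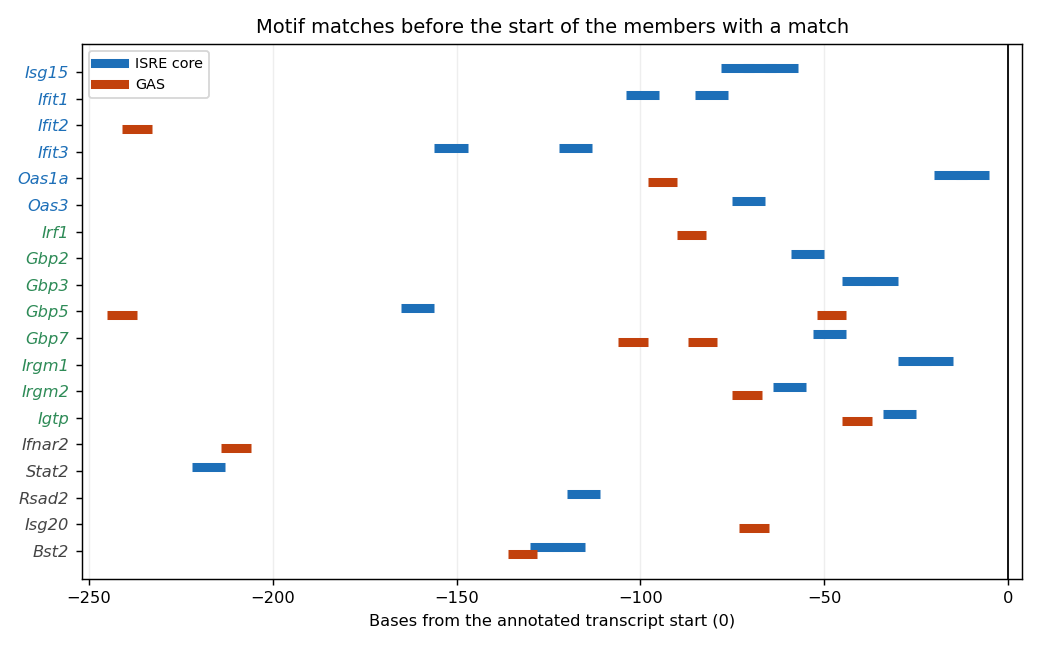
Positions of ISRE core (blue bars) and GAS (orange bars) matches in the 250 bases before the annotated start (0) of the members with at least 1 match. Gene names are blue for ISGF3-type, green for interferon gamma-type and grey for other members. Isg15, Oas3, the uncalled Ifit1 and Oas1a, and most gamma-type genes have an ISRE core within 100 bases of the start.

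The interferon gamma-type members, Gbp2, Gbp3, Gbp4, Gbp5, Gbp7, Irgm1, Irgm2, Igtp and Irf1, were all measured, and 0 of 9 were called in either direction. Over all compared genes 1.3% were called higher and 1.29% lower, so 0 of 9 is near the share over all genes. The median log2 ratio of the 9 was 0.16 and their log2 ratios spanned -0.28 to 0.41. That range lies inside the one in which most genes fell, since 5% of all compared genes were below -0.59 and 5% above 0.55. GBP and IRG proteins are interferon-induced GTPases that attack the membranes around intracellular microbes, and in these libraries their transcripts were abundant in both genotypes. Irf1, the transcription factor that relays interferon gamma to later genes, was read at 5871 and 6577 normalized counts, a fold of 1.12 (1.08 to 1.16).

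Of the GBP genes, Gbp2 was read at 18517 and 20628 normalized counts, a fold of 1.11 (1.09 to 1.14). Gbp5, a promoter of inflammasome assembly, was read at 2090.4 and 2790.3, the widest of the group at 1.33 (1.26 to 1.42). Gbp3 was read at 638 and 761. These 3 stood above equality by more than counting error. Gbp4, at 5984 and 5286, and Gbp7, at 2823 and 2331, stood below it, with folds of 0.883 (0.848 to 0.920) and 0.826 (0.777 to 0.877). The family therefore had members on both sides, none at a fold of 2. GBP genes lie in clusters of similar sequence, and in GENCODE an exon of Gbp4 overlaps exons of Gbp8 and Gbp9, so reads could be split between them.

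The IRG genes also had members on both sides. Irgm1, a regulator that keeps the other IRG proteins inactive on host membranes, was read at 6726 and 8369 normalized counts, a fold of 1.24 (1.20 to 1.29). Irgm2 was read at 2131 and 1905, a fold of 0.894 (0.835 to 0.956). Igtp (Irgm3) was read at 10723 and 11658, a fold of 1.09 (1.06 to 1.12). Exons of Igtp and Irgm2 overlap on the same strand in the annotation. Ifi47 (Irgd) and Iigp1 (Irga6), 2 further IRG genes of this list outside the 9, stood on opposite sides. Ifi47 was read at 10874 and 8997, a fold of 0.827 (0.802 to 0.853), and it overlaps Olfr56. Iigp1, the effector GTPase loaded onto parasite vacuoles, was read at 4674 and 6711, a fold of 1.44 (1.38 to 1.49), the largest among the 10 GBP and IRG genes.

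**Figure D3:**
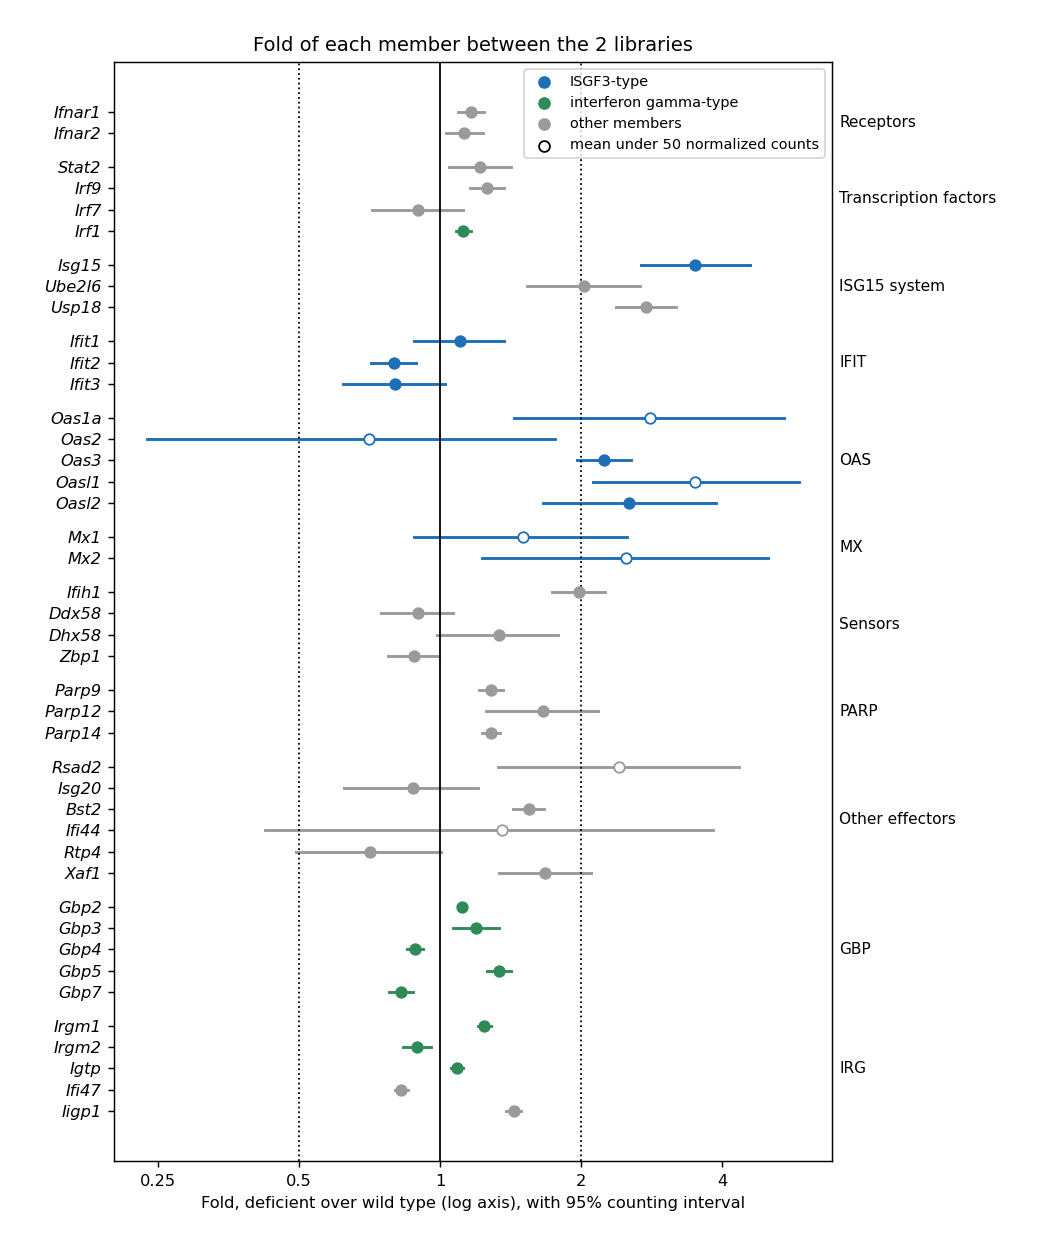
Fold of the normalized counts, deficient over wild type (log axis), for each member, with its 95% counting interval as a line. Blue marks ISGF3-type, green interferon gamma-type and grey other members, open points have a mean under 50 normalized counts, and dotted lines mark folds of 0.5 and 2. Isg15, Usp18, Oas3 and Oasl2 are the filled points called higher. The GBP and IRG points lie between 0.826 and 1.44.

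The contrast of the groups rests on few genes. The 6 measured ISGF3-type members (Ifit1, Ifit2, Ifit3, Isg15, Oas3 and Oasl2) had a median log2 ratio of 0.62, spanning -0.32 to 1.66, with 3 called. The 9 gamma-type members had a median of 0.16 and 0 called, a count near the share over all genes. The difference of the medians was 0.46, and it depends on Oasl2, which had reached the minimum only through the deficient library. With Oasl2 left out, an alternative added after the data were seen, the ISGF3-type median was 0.13 over 5 genes and the difference was -0.024, with its sign turned. With Oasl2 kept, the difference was 0.23 with a pseudocount of 50, 0.25 with a minimum mean of 200, where only Ifit2 and Oas3 remained in the first group, and 0.22 with wider groups of 20 and 11 measured genes. Without a minimum it was 0.70, over 11 and 9 genes. With 1 library per genotype it could not be tested. The ISGF3-type group is not of one kind: its median falls in a gap between the Ifit genes at -0.32 to 0.13 and the other 3 at 1.10 to 1.66.

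Level and group went together. Per kb of transcript, the ISGF3-type members had a median of 10.2 normalized counts in the wild-type and 29.9 in the deficient library. The interferon gamma-type members had medians of 1319 and 1165. In the wild-type library the highest ISGF3-type gene, Ifit2 at 227 per kb, lay below the lowest gamma-type gene, Gbp3 at 238. In the deficient library the same held for Isg15 at 281 and Gbp3 at 284. Calls are more frequent among low genes in general: 2.42% of all genes with a mean of 50 to 200 were called higher, 1.57% at 200 to 1000, and 0.665% at 1000 or more. Of the members, 2 of 11 in the first range (Isg15 and Oasl2) were called higher, 2 of 8 in the second and 0 of 16 in the third. The part that level plays in the contrast was not tested.

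**Figure D4:**
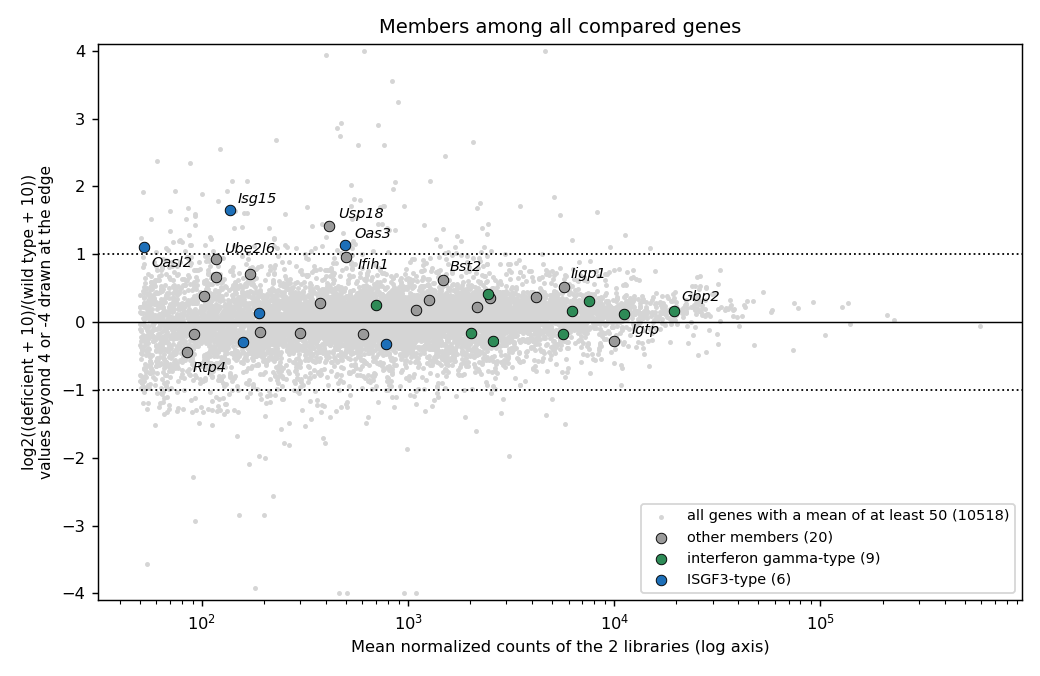
Log2 ratio against mean normalized counts (log axis) for all 10518 compared genes (light grey) and the 35 members with a mean of at least 50, coloured by group, with values beyond 4 in either direction drawn at the edge and dotted lines at the call. The gamma-type members sit to the right near 0, and the called members sit to the left at or above 1.

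The receptor and factor genes of the type I pathway differed little. Ifnar1 was read at 1988 and 2319 normalized counts, a fold of 1.17 (1.09 to 1.24), and Ifnar2 at 1031 and 1163, a fold of 1.13 (1.03 to 1.23). Stat2 was read at 336 and 410, and Irf9, the DNA-binding subunit of ISGF3, at 1116 and 1405, a fold of 1.26 (1.16 to 1.37). Irf7, the factor that amplifies type I interferon production and is itself an ISGF3 target, was read at 201 and 180.1, a fold of 0.898 (0.715 to 1.12). None of these 5 was called, and Irf7 could not be told from equal. An exon of Irf9 overlaps the neighbouring gene Rnf31 on the same strand.

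Of the cytosolic sensors, Ifih1 (MDA5), which detects long double-stranded RNA, stood apart from its relatives. It was read at 338 and 667 normalized counts, a fold of 1.98 (1.73 to 2.25), just short of a call at a log2 ratio of 0.96. Ddx58 (RIG-I) was read at 316 and 283, a fold of 0.895 (0.748 to 1.07). Dhx58 (LGP2), the helper without a signalling domain, was read at 87.5 and 117, a fold of 1.33 (0.986 to 1.79). Zbp1, a sensor of Z-form nucleic acid, was read at 640 and 563, and its log2 ratio ranged from -0.18 to -0.0097 between its transcript rows. Thus the interval of Ifih1 lay above 1, those of Ddx58 and Dhx58 included 1, and that of Zbp1 (0.775 to 0.996) ended just below it.

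The PARP genes, ADP-ribosyltransferases induced by interferon, all had a log2 ratio above 0. Parp14 was read at 3661 and 4711 normalized counts and Parp9 at 2182 and 2806, both at a fold of 1.29. Parp12 was read at 88.0 and 146, a fold of 1.66 (1.25 to 2.17). None was called. Parp9 and Dtx3l, which form a complex, overlap on opposite strands, and the library kit does not keep strand, so their reads cannot be told apart there. Dtx3l was read at 3234 and 3509, a log2 ratio of 0.12.

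The remaining effectors were mixed. Bst2 (tetherin), which holds budding virions at the cell surface, was read at 1155 and 1787 normalized counts, a fold of 1.55 (1.43 to 1.67). Xaf1, a pro-apoptotic interferon target, was read at 128 and 214, a fold of 1.68 (1.34 to 2.10). Rsad2 (viperin) stayed under the minimum with 28 and 23 reads and a fold of 2.42 (1.33 to 4.35). Rtp4 went the other way, at 99.1 and 70.3, with the lowest log2 ratio of the measured members at -0.44 and an interval that starts at 0.492 and just reaches equality. Isg20, an exonuclease, was read at 98.0 and 85.7, and Ifi44 on 13 and 6 reads, neither distinguishable from equal at this depth.

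Over the 35 measured members, the counting interval lay above 1 in 22, below 1 in 6 and included 1 in 7. Over all compared genes 35.8% had an interval above 1 and 21.7% below it. The authors' deposited table, fitted without replicates, gave every row an adjusted p of at least 0.999. The log2 fold changes in the authors' deposited table are shrunken, with a maximum of 0.67 in size over the whole table. They were 0.66 for Usp18, 0.597 for Oas3, 0.536 for Isg15 and 0.534 for Ifih1. The other members lay between -0.224 (Ifit2) and 0.427 (Bst2). With 1 library per genotype these values have no replicate check either.

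Among the measured ligand, receptor and kinase genes, Ifng differed most. It was read at 1629 and 5356 normalized counts, a fold of 3.29 (3.12 to 3.46), and was the only called gene of the 7 measured among 11 listed. That interval covers counting error only. The authors' shrunken log2 fold change was 0.173 for Ifng and -0.198 for Dgkz. Jak2, which serves the interferon gamma receptor, was read at 3220 and 5831, a log2 ratio of 0.85. Ifngr2, its signalling chain, was read at 204 and 370.4, a log2 ratio of 0.83, and Ifngr1 at 1363 and 1249. Jak1 had a log2 ratio of -0.26 and Tyk2 one of 0.20. The gamma-type GTPases were therefore near equal in the same libraries in which Ifng was 3.29-fold higher. Ifnb1 had 0 reads in both libraries, where 3 reads are worth 1.75 and 5.14 normalized counts, and Ifna2, Ifna4 and Ifnk were each at or below 5.25 normalized counts.

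Other lists of the pathway were close to the background. Of 42 other ISGF3-type genes 35 were measured, 1 was called higher, 0 lower, and the median log2 ratio was 0.12. The called gene was Cxcl10, a chemokine induced by both interferons and by NF-κB, at 40.8 and 144 normalized counts, 3.53-fold higher (2.54 to 4.92). Like Oasl2, Cxcl10 reached the minimum only through the deficient library, in which it was high. At the other end Slfn1, a Schlafen gene of T cells, stood at 1022 and 628, a log2 ratio of -0.69. Of 28 other interferon gamma-type targets 26 were measured, 1 was called higher and 1 lower, with a median of 0.059. The gene called higher was Gm4951, a predicted gene of the IRG family. It had 72 and 84 reads, or 41.98 and 144 normalized counts, and was 3.43-fold higher (2.47 to 4.77). The gene called lower was Ciita, the activator of MHC class II genes, at 90.4 and 39.4 normalized counts. Gm4951 reached the minimum only through the deficient library and Ciita only through the wild-type library. Each was high in that library. The deficient library also had lower B cell markers beside Ciita: all 7 had a log2 ratio below 0, with summed levels of 1693 and 952 normalized counts, and their part in the Ciita value was not tested. The antigen-processing genes Psmb8, Psmb9, Tap1 and B2m stood at log2 ratios from -0.073 to 0.26. Outside that range lay Tapbp at -0.38 and the MHC class I genes H2-K1 and H2-D1 at 0.33 and H2-T23 at 0.43. Icam1, in the same list of gamma-type targets, had a log2 ratio of 0.97, just short of a call.

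The factors, brakes and sensors around the pathway had no called gene among those measured. With 1.3% of all compared genes called higher and 1.29% lower, that absence is near the share over all genes. Among 6 other IRF genes the median log2 ratio was 0.14, with Irf5 at 0.65 and Irf2 at -0.23 farthest from 0. The same list holds 2 genes of IRF2-binding proteins, Irf2bp1 at -0.36 and Irf2bp2 at -0.045. Among 15 brakes and nucleic acid nucleases it was 0.13, with Cish, a feedback inhibitor of cytokine receptors, at 0.51 and the DNase Trex1 at 0.38. Socs1, the main brake on interferon gamma signalling, was read at 886 and 921 normalized counts. Of 12 sensors and adaptors 10 were measured, with a median of 0.066, and Tlr7 at 0.69 and Tmem173 (STING) at 0.43 were highest. Tlr7 lies on the X chromosome, and the sexes of the libraries differ. Tlr9, a sensor of unmethylated DNA that B cells carry, stayed under the minimum with 57 and 2 reads, or 33.2 and 3.43 normalized counts. Its fold was 0.103 (0.0122 to 0.390), and the part of the lower B cell markers in this value was not tested.

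**Figure D5:**
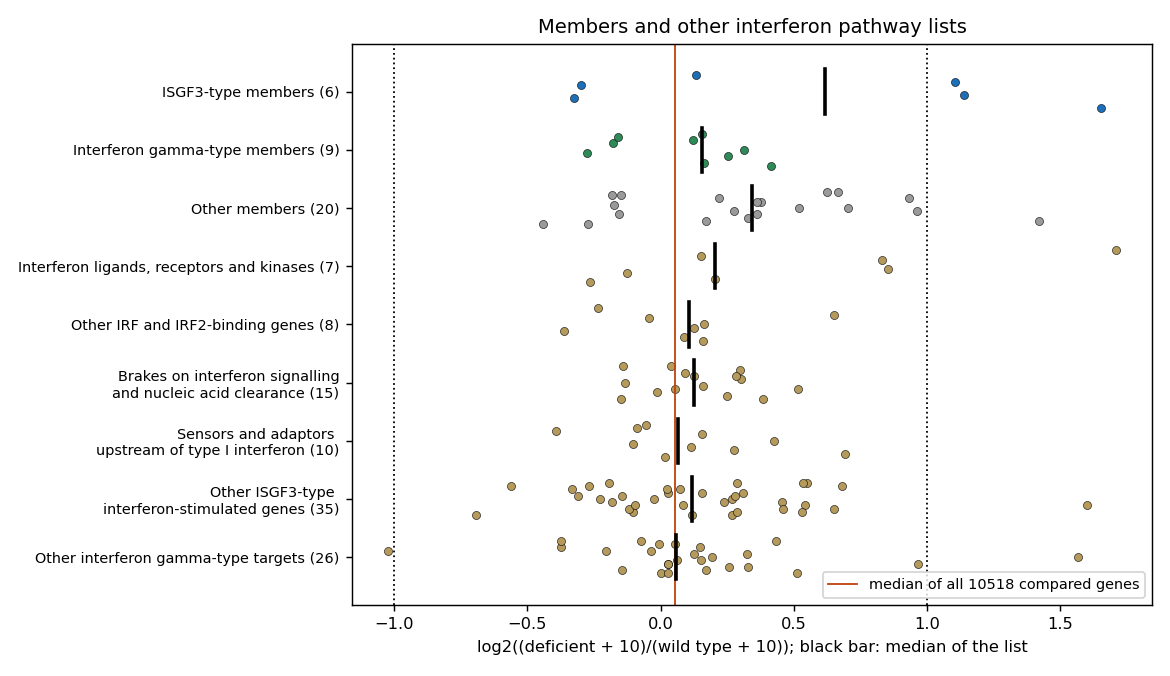
Log2 ratio of each measured gene in the members' 3 groups and in 6 further interferon lists. Each point is a gene, the black bar is the list's median, the orange line is the median of all compared genes (0.055) and dotted lines mark the call. Socs1 belongs to 2 lists. The ISGF3-type members split into a group near 0 and a group above 1. The gamma-type members lie on both sides of 0, from -0.28 to 0.41, with a median of 0.16.

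The labelled cell type was checked against markers. Cd8a was read at 13090.5 and 8455 normalized counts, and the 4 CD8 T cell markers (Cd3e, Cd3g, Cd8a, Cd8b1) had log2 ratios from -0.87 to -0.29. Of the CD4 T cell markers, Cd4 was read at 171 and 53.2, a log2 ratio of -1.52. Zbtb7b was read at 57.1 and 48.0, with an interval that includes 1. Cells that make or answer to type I interferon could add to the members, so their markers are given. Siglech, which defines plasmacytoid dendritic cells, had 4.08 and 0 normalized counts, and the 6 markers of that list summed to 570.3 and 250.4. Most of that gap was Ccr9, a chemokine receptor that T cells also carry, at 272 and 29.2, and the other 5 summed to 298 and 221. Of 9 conventional dendritic and myeloid markers 8 were in the table, and they summed to 313 and 374. They did not go one way. The 2 with a mean of at least 50 were Mpeg1, at 127 and 185, and Cd68, at 93.9 and 70.3. Under the minimum, Xcr1 (19.2 and 66.9) and Zbtb46 (18.1 and 34.3) stood higher in the deficient library. Lyz2 (7.58 and 1.71), Itgax, Csf1r and Itgam stood lower. Of 4 NK markers, Ncr1, Klrb1c and Klra8 were at 0 in the deficient library and at most 5.25 in the wild-type library. The other, Klrd1, which activated CD8 T cells also express, was read at 395 and 134, a log2 ratio of -1.49 and thus called lower. The part of these cells in the members' values was not tested. In bulk RNA a change in the number of cells of a type and a change in RNA per cell cannot be told apart.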

How the data were processed

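RNA sequencing measured 1 wild-type and 1 DGKζ-deficient library. The submitters' processing notes name STAR (version 2), DESeq and the build mm9. Which program counted reads, and on which annotation, is not given in the sources used here. Normalized counts were deposited by the authors per RefSeq transcript row as a never-negative signal, each value a read count divided by 1 factor per library. Within a relative tolerance of 0.0001, 100% of values were whole multiples of a step, so reads were recovered. A second table by the authors gives log2 fold changes with p-values, raw and adjusted, and a score from their test that was not used.

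Of 33018 rows, 1 with shifted columns (Alg6) was left out. For each symbol the row with the highest mean stood for the gene; 15 members had several rows. edgeR's quasi-likelihood test on the reads was not run, since 1 library per genotype leaves no residual degrees of freedom. Folds, Clopper-Pearson intervals and log2 ratios were computed with Python 3.11.15 and scipy 1.17.1, and TMM factors with edgeR 4.0.16. The procedures were run on simulated counts drawn with counting error only. Those counts hold no variation between animals or cultures, so the simulation says nothing of it. Lengths for levels per kb are those of the matching GENCODE M21 transcripts, found for all 42 members. Promoters came from a RefSeq table (GRCm38.p6), matched by symbol for 31 of 42 members; exon overlaps came from GENCODE on GRCm38, another build than mm9. In GENCODE, 15 members overlap an exon of another gene. Of the called members this holds for Usp18, which overlaps Gm44148 by 124 bases on the opposite strand. The longest overlap was that of Gbp7 with Gm43802, 637 bases on the same strand. The kit, NEBNext Ultra RNA per the labels' protocols, does not mark strand.

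The members and lists were chosen with earlier results of these data known. Full values are given for called members, for the member of each role with the largest absolute log2 ratio, and for Irf1; other lists are named by their called genes and the 2 largest. Genes named beyond this (Uba7, Herc6, Dtx3l, Socs1, Tlr9, Irf2bp2, the antigen-processing and MHC class I genes, Icam1, Xist and single markers) were chosen after their values were seen. Alternatives covered the pseudocount, the minimum mean, the scaling, the transcript row, the width of the groups and, added after the data were seen, leaving out Oasl2. Some genes of the pathway lists are not reported here.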

Additional observations from a re-analysis of the deposited data

How the results depend on the processing

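Each result was recomputed with other pseudocounts, minimum means, scalings, transcript rows and group definitions, and without Oasl2. Of 62 such values of the counts and medians, 58 stayed within a wide tolerance: 1.5 times for a count, and for a median the typical half-width of its genes' counting intervals, which is 0.345 for the ISGF3-type median and 0.404 for the difference of the medians. Within that tolerance the ISGF3-type median still ranged from 0.37 to 0.85 and the difference from 0.22 to 0.70. Leaving out Oasl2, chosen after seeing the data, took the ISGF3-type median to 0.131 and the difference to -0.0243, below 0. The count of members called higher was 2 (Oas3 and Usp18) at a minimum mean of 200, which leaves 24 members, and 3 to 5 otherwise; 0 were called lower under any of them. The median of the interferon gamma-type members was 0.066 at equal totals, where that of all genes was -0.033. No member's log2 ratio changed sign under the pseudocounts, scalings and transcript rows tried. Isg15, Usp18 and Oas3 stayed called under these 7 alternatives and Oasl2 under 6, with a log2 ratio of 0.65 at a pseudocount of 50. Ube2l6 was called at a pseudocount of 1. No paired analysis was possible because each genotype has 1 library. Depth limits the 7 members below the minimum, which rest on 6 to 47 reads per library.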
